A study of Mus musculus with 2 samples.

Results

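Nuclear-encoded oxidative phosphorylation genes were followed across the cell classes of CD11c-selected tumour cells. They were chosen by symbol alone: names starting with Ndufa, Ndufb, Ndufc, Ndufs or Ndufv and a number, with Cox4 to Cox8, with Uqcr or with Atp5, plus Sdha, Sdhb, Sdhc and Sdhd. This gave 84 of the 27998 genes in the files, with 37 named for complex I, 4 for complex II, 8 for complex III, 18 for complex IV and 17 for complex V. The symbols do not map perfectly onto the complexes: Ndufa4 was counted under complex I by its name but is now placed in complex IV, Cox7a2l is an assembly factor of respiratory supercomplexes, and Atp5s and Atp5sl are not core subunits. The carrier subunit Ndufab1, cytochrome c1 (Cyc1) and the inhibitor Atpif1 fell outside the symbol rule and were kept in a list of assembly factors and carriers.

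Oxidative phosphorylation is the final stage of respiration in the inner mitochondrial membrane. Complexes I and II pass electrons from NADH and succinate to ubiquinone, complex III passes them to cytochrome c, complex IV passes them to oxygen, and complex V (ATP synthase) uses the proton gradient to make ATP. Most subunits are encoded in the nucleus, while the core of every complex except complex II also needs subunits made from mitochondrial DNA, the mt- genes. Among immune cells, dendritic cells and macrophages are known for shifting between respiration and glycolysis with activation.

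The libraries came from tumours of PyMT mice, a model of mammary cancer driven by the polyoma virus middle T antigen, on the C57BL/6N background. The labels mark both libraries WT and name no other genotype and no treatment, so the comparisons set cell classes of the same libraries against each other. The labels give neither the promoter of the transgene nor the age of the mice nor whether the libraries came from separate animals. The p-values therefore measure only how far differences between classes varied between these 2 libraries, with the spread estimated over all classes in the fit. The tested classes were epithelial-like, cycling, resident macrophage-like, macrophage-like, cDC1-like (cross-presenting conventional dendritic cells) and mature DC-like cells, and the dendritic classes were set against cDC2-like cells (the second kind of conventional dendritic cell). Replicate 1 held 17369071 UMIs (unique molecular identifiers, each counting a captured molecule once) and 1900 cells, and replicate 2 held 13317214 UMIs and 1216 cells, with medians of 5659.5 and 7141.5 UMIs per cell and 2 cell barcodes present in both libraries. Cell numbers in replicate 1 and replicate 2 were 480 and 360 for macrophage-like, 237 and 31 for resident macrophage-like, 129 and 78 for cDC1-like, 48 and 27 for mature DC-like, 143 and 161 for cDC2-like, 91 and 60 for cycling and 111 and 44 for epithelial-like cells. The cDC2 name rested on 3 of its markers, and the monocyte name covered 4 clusters that each met 3 markers and were led by different genes, so those clusters are given by number. Itgax, which encodes CD11c, stood at 137 and 165 unscaled CPM (UMI counts per sum of the class, set to a common total) in the macrophage-like class of replicate 1 and replicate 2, at 140 and 155 in the cDC2-like class, at 35.9 and 33.2 in the resident macrophage-like class, but at 10.3 and 1.94 in the epithelial-like class, which, like the fibroblast-like class, goes against the label of myeloid cells.

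The 84 genes held 541192 of 22211238 UMIs in cells. The 10 most counted members took 32.8% of them, led by Cox4i1 (31050 UMIs), Atp5l (22732) and Cox8a (17609). A filter on low counts passed 77 members, of which 36 belonged to complex I, 4 to complex II, 8 to complex III, 13 to complex IV and 16 to complex V. The other 7 were tissue isoforms or minor genes: Cox7b2 and Cox8c had 0 UMIs, Cox8b had 7, Cox4i2 had 8, Ndufa4l2 had 23, Atp5s had 60 and Cox6a2 had 115. For 20 members a stretch of at least 98 bases within the last 300 of a transcript matched another gene at 95% identity or more. Among them were Atp5l with 12 such genes, Cox7c with 4, Uqcrb with 3 and Atp5h with 2, so their counts are less certain. Of these matching genes, the files held 1 for Atp5l, 1 for Atp5h and 0 for Cox7c and Uqcrb. Ndufb2, Ndufb6, Ndufb11, Uqcr11, Uqcrh, Uqcrc2, Cox5a, Cox6a1, Atp5o and Atp5g2, which are named below, also belong to these 20.

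The summed share of UMIs taken by the 84 nuclear genes differed between classes and was similar in both libraries. Cycling cells had 2.91% and 2.91% in replicate 1 and replicate 2, epithelial-like cells 2.79% and 2.86%, and cDC1-like cells 2.57% and 2.75%. Resident macrophage-like cells had 2.07% and 2.10%, macrophage-like cells 1.93% and 2.01%, mature DC-like cells 1.95% and 1.92%, fibroblast-like cells 2.09% and 1.84%, and cDC2-like cells 2.40% and 2.39%. The macrophage-like, resident macrophage-like and mature DC-like values thus all lay below both cDC2-like values, and those of the first and last of these overlapped each other. Among the clusters given by number, cluster 1 (led by Ear2, F10 and Fn1) had the highest share of the myeloid cells, at 3.17% and 3.14%. Cluster 2 (led by Ms4a4c, Fcgr4 and Ly6c2) had 2.22% and 2.11%, and a small epithelial-like cluster of 19 cells had 3.67% and 3.54%.

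The mt- genes did not follow the nuclear genes. Their share of UMIs was 4.92% and 6.30% for the epithelial-like class, 3.20% and 3.77% for the resident macrophage-like class, 2.79% and 2.82% for the macrophage-like class and 1.93% and 2.23% for the cDC2-like class. The ratio of mt- to nuclear UMIs was 1.77 and 2.201 for the epithelial-like class, 1.54 and 1.79 for the resident macrophage-like class and 1.44 and 1.40 for the macrophage-like class, against 0.804 and 0.934 for the cDC2-like class. The order of the classes therefore differed between the gene sets: macrophage-like cells were below cDC2-like cells in nuclear share and above them in mt- share in both libraries. Over the means of 9 classes, Pearson's r between the nuclear and mt- shares was 0.378 and Spearman's rho was 0.467, and for the nuclear share with the summed share of glycolysis genes r was 0.872 and rho was 0.817. These points share their libraries and the total of UMIs they are divided by. Cells thinned to 1913 UMIs gave the same order for macrophage-like and cDC2-like cells, though not for every pair of classes. The median cell had 35 and 37 UMIs of nuclear members in macrophage-like cells, against 45 and 45 in cDC2-like cells. For mt- genes it had 47 and 51 UMIs in macrophage-like cells, against 34 and 43 in cDC2-like cells. The middle 50% of cells for the nuclear members ran from 28 to 43 in macrophage-like cells and from 38 to 53 in cDC2-like cells of replicate 1, so single cells of the classes overlapped.

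**Figure D1:**
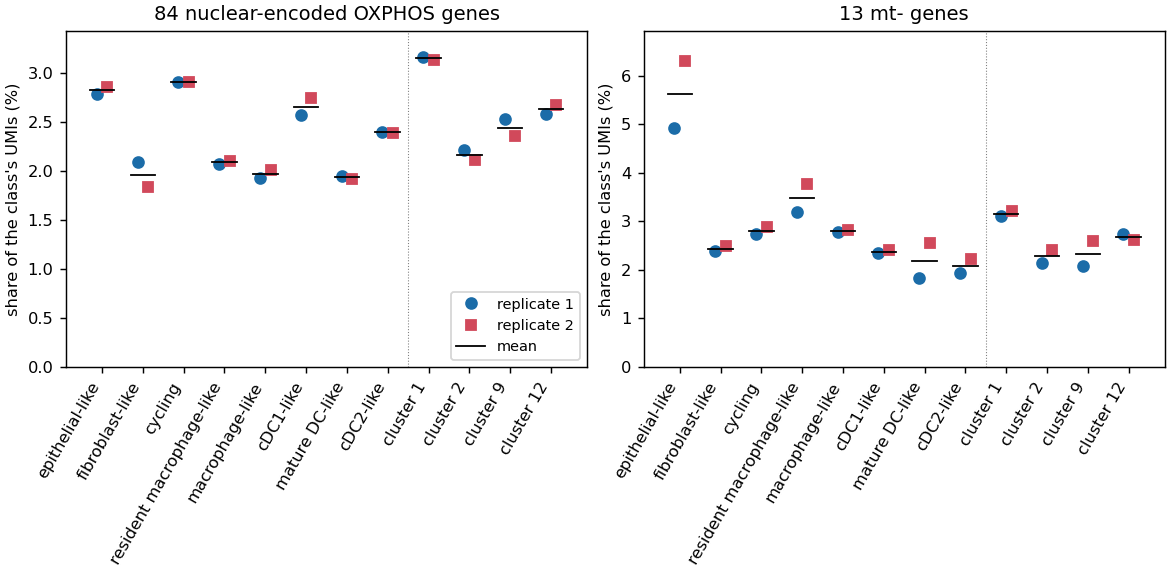
Share of all UMIs of a class (y axis, percent) taken by the 84 nuclear-encoded OXPHOS genes (left) and the 13 mt- genes (right), with a circle for replicate 1, a square for replicate 2 and a line at their mean. Clusters 1, 2, 9 and 12 stand right of the dotted line, and macrophage-like cells lie below cDC2-like cells on the left and above them on the right.

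Macrophage-like cells had lower levels of many subunits of complexes I, III, IV and V than cDC2-like cells, and of no complex II subunit. By edgeR's quasi-likelihood test with Benjamini-Hochberg adjustment over 4878 genes, 35 of the 77 members tested were lower and 0 were higher at an adjusted p under 0.05, with 0 higher at an unadjusted p under 0.05 and 0 by DESeq2. Of all genes tested, 25.7% were called in either direction, 11.8% higher and 13.9% lower. The median log2 fold change was -0.41 over the 77 members and 0.05 over all genes tested. Cytosolic ribosomal protein genes, listed by symbol, were also lower (96 of 103, median -0.91). They took 17.9% and 18.8% of UMIs in macrophage-like cells, against 29.5% and 30.1% in cDC2-like cells. The symbol rule also took in some genes that are not ribosomal proteins, such as Rps6ka3 and Rps19bp1. With ribosomal protein and mt- genes removed before scaling, 34 members were lower. With every cell thinned to 1913 UMIs 16 were lower, and with UMI totals in place of TMM 16 were lower and 1 was higher. A per-cell marker gate gave 13 lower, and 23 cells per class and library, at a much smaller depth, gave 3.

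In complex I, 11 of 36 members fell in macrophage-like cells relative to cDC2-like cells. Ndufa6, an accessory subunit, had 271 and 259 CPM (here also scaled by edgeR's TMM factors) in macrophage-like cells, against 637 and 844 CPM in cDC2-like cells. Its log2 fold change was -1.48 (SE 0.17, adjusted p = 2.28e-08), the largest of the complex. Across the classes Ndufa6 was highest in cDC2-like cells, followed by cDC1-like cells at 535 and 646 CPM, and the cDC1-like value of replicate 2 exceeded the cDC2-like value of replicate 1. The membrane-arm accessory subunits Ndufb7 (-0.86), Ndufb11 (-0.80) and Ndufb5 (-0.78) fell by smaller amounts on the log2 scale. Ndufb7, for example, had 151 and 158 CPM in macrophage-like cells, against 288 and 275 CPM in cDC2-like cells. Ndufa4, named for complex I but a subunit of cytochrome c oxidase, had 286 and 259 CPM in macrophage-like cells, against 474 and 407 CPM in cDC2-like cells (-0.69, SE 0.17, adjusted p = 0.00167).

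Complex II, the succinate dehydrogenase that belongs to both the citric acid cycle and the respiratory chain, had no member called. Sdhb, its iron-sulphur subunit, had 167 and 197 CPM in macrophage-like cells, against 164 and 158 CPM in cDC2-like cells (0.18, SE 0.18, adjusted p = 0.548). Sdhc, a membrane anchor, had 77.8 and 109 CPM in macrophage-like cells and 60.8 and 91.3 CPM in cDC2-like cells (0.28, SE 0.23, adjusted p = 0.417). The catalytic subunit Sdha stood at 81.9 and 83.9 CPM in macrophage-like cells and at 73.0 and 73.0 CPM in cDC2-like cells. None of the 4 passed the test, at an unadjusted p under 0.05 or by DESeq2 either, so no difference of a single complex II member was detectable. Complex II made up 2.13% and 2.45% of all member UMIs in macrophage-like cells, against 1.40% and 1.48% in cDC2-like cells. This part also depends on the levels of the other complexes and was not tested. Whether complex II differs from the other complexes was not tested.

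In complex III, 4 of 8 members fell. Uqcrfs1, the Rieske iron-sulphur protein, had 187 and 160 CPM in macrophage-like cells, against 293 and 314 CPM in cDC2-like cells (-0.81, SE 0.18, adjusted p = 0.00052). Uqcrh, the hinge protein near cytochrome c1, had 646 and 662 CPM in macrophage-like cells and 894 and 1056 CPM in cDC2-like cells (-0.58, SE 0.16, adjusted p = 0.00473). Both were lower in macrophage-like cells in each library.

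In complex IV, 9 of 13 members fell. Cox6b2, the testis isoform of a subunit that faces cytochrome c, had 9.82 and 15.8 CPM in macrophage-like cells, against 47.3 and 60.1 CPM in cDC2-like cells (-2.07, SE 0.30, adjusted p = 1.25e-06). These values rest on 24 and 38 UMIs in macrophage-like cells and 35 and 56 UMIs in cDC2-like cells. Among the 75 members with UMIs in every class it varied most, with its highest mean in cDC2-like cells and its lowest in epithelial-like cells. Cox7a2l had 486 and 494 CPM in macrophage-like cells, against 827 and 929 CPM in cDC2-like cells (-0.84, SE 0.16, adjusted p = 0.000103), and the structural subunits Cox7b (-0.76) and Cox5b (-0.70) fell alike. Cox4i1, the ubiquitous isoform of a regulatory subunit, was not called: it had 1358 and 1387 CPM in macrophage-like cells and 1629 and 1895 CPM in cDC2-like cells (-0.36, SE 0.15, adjusted p = 0.0701).

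In complex V, 11 of 16 members fell. Atp5d, the delta subunit of the rotor stalk, had 349 and 397 CPM in macrophage-like cells, against 616 and 854 CPM in cDC2-like cells (-0.97, SE 0.16, adjusted p = 1.82e-05). Its partner Atp5e, the epsilon subunit, had 527 and 513 CPM in macrophage-like cells and 935 and 993 CPM in cDC2-like cells (-0.89, SE 0.16, adjusted p = 5.56e-05). Atp5h, of the stator, had 510 and 563 CPM in macrophage-like cells, against 845 and 972 CPM in cDC2-like cells (-0.76), and Atp5l, of the membrane part, fell by 0.69 on the log2 scale. The macrophage-like and cDC2-like values of the 35 called members did not overlap in either library. As these members were called on the same values, this adds no support, and overlap over all genes was not counted.

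Many OXPHOS genes are known targets of NRF1 and of the ETS factor GABP, so the promoters of the members were searched for their motifs. Windows from 250 bases before to 50 bases after the start were in the RefSeq table (GRCm38.p6) for 69 of the 84 members. The NRF1 motif, GCGCA and GCGC with any base between them, was in the windows of 17 members (24.6%), against 5.19% of all 27025 genes and 12.9% of the 3717 genes tested here that had a window. The ETS-type motif CCGGAAG was in those of 16 members (23.2%), against 9.93% of all genes and 21.3% of the genes tested. Either strand counted, and 4 members (Atp5h, Atp5k, Cox6a1 and Sdhd) held both, against 1.12% of all genes. The share with both among the genes tested was not counted. Of the members lower in macrophage-like cells, 8 of 33 with a window had the NRF1 motif and 10 had the ETS-type motif, and of those not called 9 of 33 and 6 had them. Shown here are the upstream stretches of the 3 members that hold both motifs before the RefSeq start: Atp5h and Cox6a1, lower in macrophage-like cells, and Sdhd, which was not called here. Cox6a1, the common isoform of Cox6a, had 413 and 378 CPM in macrophage-like cells, against 541 and 579 CPM in cDC2-like cells (-0.50, SE 0.16, adjusted p = 0.0142). The stretches are read 5′ to 3′ on the minus strand with the motifs in capitals, where CTTCCGG is CCGGAAG on the other strand, and the motifs do not overlap. They lie at chr11:115419936-115420075 for Atp5h, chr5:115348959-115349135 for Cox6a1 and chr9:50603874-50603943 for Sdhd. In the GENCODE M21 annotation Atp5h starts at 115419962 and Cox6a1 at 115348981, so there the ETS-type motif of both lies within the gene.
Atp5h: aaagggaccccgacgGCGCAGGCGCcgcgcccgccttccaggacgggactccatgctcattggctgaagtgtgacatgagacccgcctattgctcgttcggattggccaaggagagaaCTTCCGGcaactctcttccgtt
Cox6a1: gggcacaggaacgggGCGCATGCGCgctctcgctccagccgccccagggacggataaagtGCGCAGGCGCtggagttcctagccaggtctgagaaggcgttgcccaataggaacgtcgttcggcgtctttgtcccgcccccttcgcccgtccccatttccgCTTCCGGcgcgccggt
Sdhd: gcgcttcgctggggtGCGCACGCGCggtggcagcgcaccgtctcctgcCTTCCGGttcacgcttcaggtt

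The mitochondrially encoded partners of these subunits were not lower. Of 12 mt- genes tested, 1 was higher in macrophage-like cells and 0 were lower, with 3 higher and 0 lower at an unadjusted p under 0.05 and 4 higher by DESeq2. mt-Nd4l, a complex I subunit that shares a transcript with mt-Nd4, had 58.1 and 52.7 CPM in macrophage-like cells, against 36.5 and 34.4 CPM in cDC2-like cells (0.65, SE 0.23, adjusted p = 0.0368), a call lost without the replicate block, after thinning and in most regroupings of the cells. Without a scaling factor 8 of the 12 were higher. Elsewhere in the mitochondrion, 4 of 17 genes of the citric acid cycle and pyruvate dehydrogenase fell and 0 rose, among them fumarase (Fh1), at 41.3 and 39.0 CPM in macrophage-like cells, against 101 and 163 CPM in cDC2-like cells (-1.71, SE 0.21, adjusted p = 8.74e-08). Of 73 mitochondrial ribosomal protein genes 4 rose and 10 fell, and of 33 assembly factors and carriers 6 fell, including the copper chaperone Cox17 (-1.04, SE 0.20, adjusted p = 0.000124). The shares called in either direction were 23.5%, 19.2% and 18.2% for these 3 lists in turn. Each was below the 25.7% of all genes, of which 11.8% were higher and 13.9% lower, so these lists did not stand out. Of 16 glycolysis genes 3 rose and 2 fell, with the lactate dehydrogenase subunit Ldhb at 21.3 and 51.9 CPM in macrophage-like cells, against 1.35 and 2.15 CPM in cDC2-like cells.

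**Figure D2:**
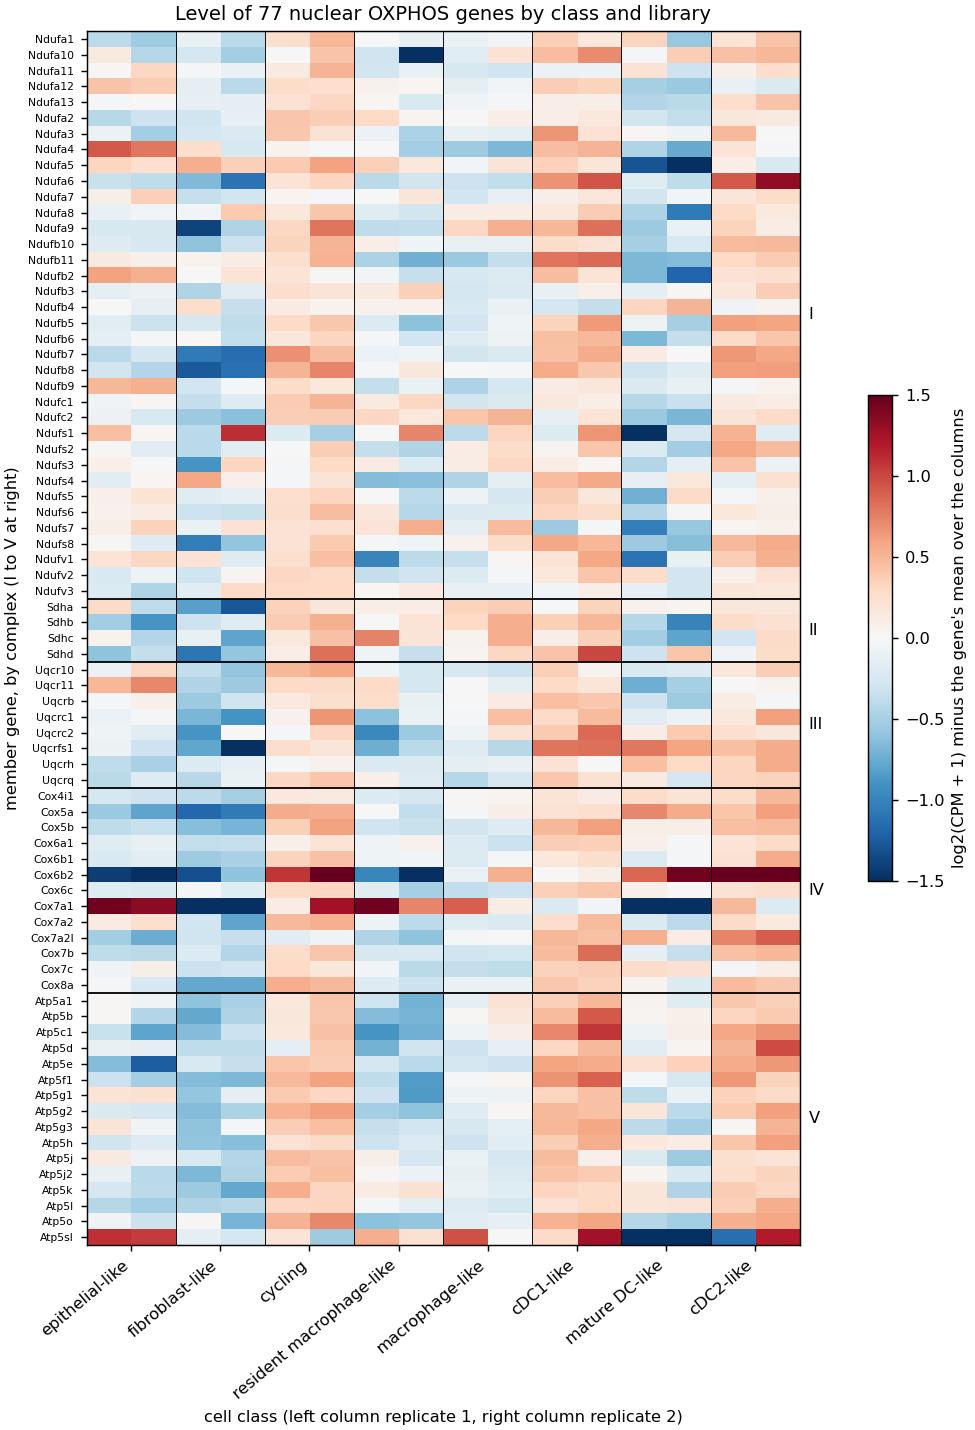
Level of each of the 77 members past the filter (rows, grouped by complex) in 8 classes, with replicate 1 left and replicate 2 right in each class, as log2(CPM + 1) minus the gene's mean over the columns. Colours end at 1.5 in either direction, Cox6b2 and Ndufa6 are darkest in cDC2-like cells, and Cox7a1 and Atp5sl rest on few UMIs.

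Mature DC-like cells, the migratory state marked by Ccr7 and Fscn1, also had lower levels than cDC2-like cells. Ccr7, but not Fscn1, was also among the 10 leading genes of the cDC2-like cluster, whose name rested on 3 markers. This comparison shares its cDC2-like samples with the one above. Of the 77 members 26 were lower and 0 were higher, with 0 higher at an unadjusted p under 0.05 and 0 by DESeq2, which called 18 lower. Of all genes tested, 13.1% were called in either direction, 5.29% higher and 7.85% lower. The median log2 fold change was -0.50 over the members and -0.18 over all genes. The number lower was 15 with DESeq2 size factors, 16 with UMI totals, 17 without the replicate block, 11 after thinning, 10 with the per-cell marker gate and 1 with 23 cells per class and library. The calls comprised 14 of 36 members of complex I, 1 of 4 of complex II, 1 of 8 of complex III, 3 of 13 of complex IV and 7 of 16 of complex V. Ribosomal protein genes took 24.6% and 24.9% of UMIs in mature DC-like cells, against 29.5% and 30.1% in cDC2-like cells, and 42 of 103 were lower; their part in the member levels was not tested.

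Ndufa5, a complex I accessory subunit, had 35.95 and 18.3 CPM in mature DC-like cells, against 96.0 and 76.2 CPM in cDC2-like cells (-1.57, SE 0.38, adjusted p = 0.00361), from 9 and 3 UMIs in mature DC-like cells. Ndufa6 had 296 and 256 CPM in mature DC-like cells, against 637 and 844 CPM in cDC2-like cells (-1.41, SE 0.20, adjusted p = 3.44e-06). Ndufs8, which carries iron-sulphur clusters of the electron path, had 71.9 and 67.1 CPM in mature DC-like cells and 147 and 156 CPM in cDC2-like cells (-1.11, SE 0.28, adjusted p = 0.00475). The accessory subunits Ndufb2 (-1.12), Ndufb11 (156 and 159 CPM in mature DC-like cells, against 307 and 324 CPM in cDC2-like cells), Ndufa8 (-0.90), Ndufb6 (-0.89), Ndufb8 (-0.87), Ndufb10 (-0.86) and Ndufc2 (-0.86) fell as well. None of their values overlapped between the classes, but they were named because they were called, and overlap over all genes was not counted. Complex I made up 23.0% and 23.8% of all member UMIs in mature DC-like cells, against 27.4% and 26.5% in cDC2-like cells, while complex IV made up 34.4% and 33.6% in mature DC-like cells, against 30.3% and 30.7% in cDC2-like cells.

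Outside complex I, Sdhb had 99.9 and 67.1 CPM in mature DC-like cells, against 164 and 158 CPM in cDC2-like cells (-0.89, SE 0.27, adjusted p = 0.0215). Atp5o, the ATP synthase subunit that links stator and head, had 168 and 159 CPM in mature DC-like cells, against 326 and 338 CPM in cDC2-like cells (-1.02, SE 0.23, adjusted p = 0.00172). The most counted members were not called: Atp5l had 1099 and 1111 CPM in mature DC-like cells and 1248 and 1413 CPM in cDC2-like cells (-0.27, SE 0.16, adjusted p = 0.315), and Cox4i1 had 1626 and 1532 CPM in mature DC-like cells and 1629 and 1895 CPM in cDC2-like cells. Cox7a1 and Atp5sl had 0 UMIs in mature DC-like cells and at most 10 in a library of cDC2-like cells, so no fold is given. None of the 12 mt- genes was called in either direction, with 0 higher and 1 lower at an unadjusted p under 0.05 and 0 by DESeq2. Of 16 glycolysis genes 8 were lower, and Fh1 had 16.0 and 18.3 CPM in mature DC-like cells, against 101 and 163 CPM in cDC2-like cells (-2.95, SE 0.43, adjusted p = 4.72e-06).

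**Figure D3:**
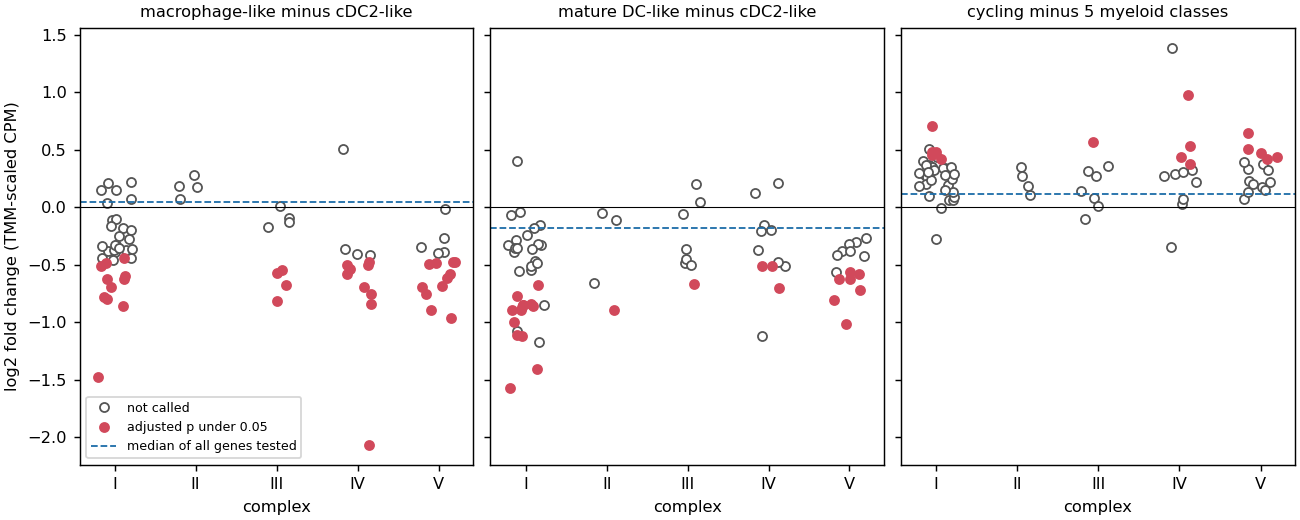
Log2 fold change of each tested member by complex (x axis) in macrophage-like minus cDC2-like, mature DC-like minus cDC2-like and cycling minus the mean of 5 myeloid classes, filled where the adjusted p was under 0.05. The dashed line is the median of all genes tested (0.05, -0.18 and 0.11), and Cox7a1 and Atp5sl, at 0 UMIs in mature DC-like cells, are not drawn in the middle panel. The mean in the right panel includes mature DC-like cells, so the size of their folds there is uncertain.

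Few members were called between the conventional dendritic classes, and this comparison again shares the cDC2-like samples. In cDC1-like cells 2 of 77 members were higher and 1 was lower than in cDC2-like cells, where 13.8% of all genes were called in either direction, 5.45% higher and 8.34% lower. The share of members called was thus below that of all genes, and the median log2 fold change of the members was 0.02. Ndufb11 had 435 and 451 CPM in cDC1-like cells, against 307 and 324 CPM in cDC2-like cells (0.49, SE 0.17, adjusted p = 0.0472). Sdhd, a membrane anchor of complex II, had 147 and 221 CPM in cDC1-like cells and 105 and 132 CPM in cDC2-like cells (0.62, SE 0.20, adjusted p = 0.0354). Cox6b2 had 10.6 and 11.3 CPM in cDC1-like cells, against 47.3 and 60.1 CPM in cDC2-like cells (-2.28, SE 0.37, adjusted p = 2.3e-05). Of these, Ndufb11 and Sdhd lost their calls in several alternatives, such as the fit without a replicate block (0 members higher), whereas with no scaling factor the split was 8 higher and 1 lower. Of the other mitochondrial genes, Atpif1, the inhibitor of ATP synthase hydrolysis, had 1074 and 1294 CPM in cDC1-like cells, against 523 and 548 CPM in cDC2-like cells (1.14, SE 0.16, adjusted p = 1.76e-06). The pore protein Vdac2 (0.97) and the import subunit Tomm5 (1.22) were also higher in cDC1-like cells, and mt-Nd5, of complex I, was lower (-0.70, SE 0.21, adjusted p = 0.0173).

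Resident macrophage-like cells, marked by Folr2, Lyve1 and Cbr2, had few members called against macrophage-like cells. Of the 77, 6 were lower and 0 were higher, with 3 higher and 14 lower at an unadjusted p under 0.05 and 3 higher and 5 lower by DESeq2, and 11.6% of all genes were called in either direction, 5.33% higher and 6.23% lower. With no scaling factor the split was 3 higher and 3 lower, and 3 were lower with DESeq2 size factors, without the replicate block and after thinning, and 0 with 23 cells per class and library. The median log2 fold change was -0.02 over the members and -0.03 over all genes. The share of members called, 7.79% and all lower, was below that of all genes in either direction and near their share called lower. The calls thus do not set the members apart from other genes. Of 103 cytosolic ribosomal protein genes 44 were lower (median -0.44), and their part in the member levels was not tested. The 6 comprised 1 member of complex I, 2 of complex III and 3 of complex V. Atp5b, the catalytic beta subunit, had 359 and 347 CPM in resident macrophage-like cells, against 568 and 635 CPM in macrophage-like cells (-0.75, SE 0.18, adjusted p = 0.00538). Atp5c1, the gamma subunit that turns inside the head, had 189 and 211 CPM in resident macrophage-like cells and 334 and 375 CPM in macrophage-like cells (-0.83, SE 0.19, adjusted p = 0.00311). The core proteins Uqcrc2 (-0.89, SE 0.24, adjusted p = 0.0123) and Uqcrc1 (-0.62, SE 0.21, adjusted p = 0.0475) of complex III, Ndufa9 of complex I (-0.74) and Atp5f1 of the ATP synthase stator (-0.54) made up the rest. Uqcrc1, at 83.9 and 121 CPM in resident macrophage-like cells and 128 and 178 CPM in macrophage-like cells, came closest to overlapping, and replicate 2 held 31 resident macrophage-like cells.

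Beside these members, cytochrome c1 (Cyc1) was lower in resident macrophage-like cells (-0.74, SE 0.25, adjusted p = 0.0474), as were 6 of 24 import and outer membrane genes, among them Phb2 (-0.93) and Vdac1 (-0.86). Of 16 glycolysis genes 9 were lower and 1 was higher, including the glucose transporter Slc2a1 at 16.3 and 15.1 CPM in resident macrophage-like cells, against 46.3 and 43.6 CPM in macrophage-like cells. Fh1 was higher, at 84.7 and 60.3 CPM in resident macrophage-like cells, against 41.3 and 39.0 CPM in macrophage-like cells (1.01, SE 0.24, adjusted p = 0.00402). mt-Nd4l was the mt- gene called, at 108 and 105 CPM in resident macrophage-like cells, against 58.1 and 52.7 CPM in macrophage-like cells (0.94, SE 0.21, adjusted p = 0.00232).

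Cycling cells, marked by Top2a and Birc5, had higher levels of some members than the mean of the macrophage-like, resident macrophage-like, cDC1-like, cDC2-like and mature DC-like classes. This mean leaves out the clusters given by number, and cluster 1 had a larger summed share than cycling cells in both libraries. Cycling cells had C1qa at 1717 and 1678 unscaled CPM, between macrophage-like cells (5178 and 6071) and cDC2-like cells (181 and 107). Klrd1 also lay between them in both libraries. The parts of cycling and of a mix of lineages in the member levels were not tested. Of the 77 members 15 were higher and 0 were lower, with 1 lower at an unadjusted p under 0.05 and 1 by DESeq2, and 11.8% of all genes were called in either direction, 9.84% higher and 1.99% lower. The calls comprised 5 of 36 members of complex I, 0 of 4 of complex II, 1 of 8 of complex III (Uqcr10), 4 of 13 of complex IV and 5 of 16 of complex V, so complexes I and III were near the share of all genes. The median log2 fold change was 0.29 over the members and 0.11 over all genes. Cycling cells were also deeper than each of these classes, with a median of 10968 UMIs, and after thinning every cell to 1913 UMIs 10 members were higher, while with UMI totals 54 were and with 23 cells per class and library 1 was.

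Ndufa5 had 118 and 136 CPM in cycling cells, against means of 89.5 and 79.9 CPM over the myeloid classes (0.71, SE 0.17, adjusted p = 0.00367). Folds here are against the mean of the classes on the log scale, so they differ from the ratio of these means. Atp5o had 323 and 373 CPM in cycling cells, against 233 and 239 CPM (0.64, SE 0.14, adjusted p = 0.00139), and Uqcr10, a small complex III subunit, had 417 and 442 CPM, against 299 and 285 CPM (0.57, SE 0.13, adjusted p = 0.00327). Cox7a2, the non-muscle isoform of its subunit (0.53), and Atp5g2, which encodes the ring of ATP synthase (0.51), were higher too. No cycling value of these 5 overlapped the myeloid classes' mean, whereas Cox6b2, also called higher (0.98, SE 0.30, adjusted p = 0.0243), had 23.4 and 38.2 CPM in cycling cells and overlapped means of 18.5 and 23.6 CPM. All of these were named because they were called, and overlap over all genes was not counted. Single classes reached or passed the cycling cells: Cox6b2 had 47.3 and 60.1 CPM and Atp5o 326 and 338 CPM in cDC2-like cells. Among the myeloid and cycling classes, the monocyte-named one included, cycling cells had the highest mean for 16 of the 77 members, cDC1-like cells for 26 and cDC2-like cells for 18. None of the 12 mt- genes was called, with 0 in either direction at an unadjusted p under 0.05 and 0 by DESeq2, while 11 of 73 mitochondrial ribosomal protein genes, 9 of 16 glycolysis genes and the regulator Nrf1 (0.86, SE 0.28, adjusted p = 0.0398) were higher. Of the 103 genes listed by symbol as cytosolic ribosomal proteins, 2 were called higher and 3 lower. The 2 called with the largest folds were Rps19bp1 and Rps6ka3, which are not ribosomal proteins.

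Epithelial-like cells, outside the sorted lineage, had members called in both directions against the myeloid classes. Of the 77 members 7 were higher and 23 were lower than the mean of the 5 myeloid classes, where 52.6% of all genes were called in either direction, 29.2% higher and 23.4% lower. The share of members called, 39.0%, was below that of all genes. Of 103 cytosolic ribosomal protein genes 80 were lower (median -0.52), and their part in the member levels was not tested. The split depended on the scaling: it was 17 higher and 13 lower with DESeq2 size factors and 49 higher and 3 lower with UMI totals alone, which moved the median of all genes by 0.18 and 0.60. Summed before any scaling, the members took a larger share of UMIs in epithelial-like cells than in each of those 5 classes in both libraries. The changes of single members stand against a median of 0.11 over all genes.

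Ndufa4 had 787 and 721 CPM in epithelial-like cells, against means of 410 and 358 CPM over the myeloid classes (1.03, SE 0.12, adjusted p = 8.07e-09). The complex I subunits Ndufb2 (0.71, SE 0.14, adjusted p = 5.57e-05) and Ndufb9 (0.65, SE 0.13, adjusted p = 7.06e-05) and the complex III subunit Uqcr11 (0.67, SE 0.13, adjusted p = 5.51e-05) were also higher. On the other side, Atp5e had 403 and 268 CPM in epithelial-like cells, against 738 and 744.5 CPM over the myeloid classes (-1.08, SE 0.14, adjusted p = 5.35e-08). Cox5a, a subunit on the matrix side of complex IV, had 364 and 311 CPM in epithelial-like cells and 660 and 647 CPM over the myeloid classes (-0.93, SE 0.14, adjusted p = 6.08e-07). Cox7a2l (-0.85), Sdhb (-0.76), Sdhd (-0.67) and Atp5c1 (-0.66) fell as well. With UMI totals the folds became -0.48 for Atp5e, -0.32 for Cox5a, -0.25 for Cox7a2l, -0.17 for Sdhb, -0.07 for Sdhd and -0.06 for Atp5c1, and 1.64 for Ndufa4, with no turn of direction among the members named here. Cox7a1, the muscle isoform of its subunit, was called higher (2.15, SE 0.76, adjusted p = 0.0175) from 16 and 6 UMIs in epithelial-like cells. Its UMIs were missing from mature DC-like cells, which are among the myeloid classes averaged, so the size of this fold is uncertain. Complex I made up 31.4% and 32.2% of member UMIs in epithelial-like cells, close to the 31.4% and 31.4% in fibroblast-like cells and the 30.3% and 30.6% in resident macrophage-like cells.

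Of the 12 mt- genes 11 were higher in epithelial-like cells and 0 were lower, with a median log2 fold change of 0.79. By DESeq2 and under either other scaling 12 were higher. mt-Nd2 had 1008 and 1143 CPM in epithelial-like cells, against 518 and 614 CPM over the myeloid classes (0.98, SE 0.12, adjusted p = 1.95e-08). mt-Co2 was not called, at 3382 and 4048 CPM in epithelial-like cells and 3051 and 3455 CPM over the myeloid classes (0.19, SE 0.11, adjusted p = 0.151). Barcodes of at most 50 UMIs, which carry free RNA, also had much mt- RNA, 4.81% and 6.54% of their UMIs. Free RNA was estimated at 5.95% and 2.91% of the UMIs of epithelial-like cells in replicate 1 and replicate 2. With it subtracted, their mt- shares were 4.93% and 6.29%. As the shares of free RNA and of these cells are close, subtraction moves the value little at any amount of free RNA. The part of free RNA in the mt- levels was not tested. The filter at 10% mt- UMIs acts most on this class: without it the mean mt- share was 8.94%, and at 5% it was 3.78%. Of the citric acid cycle and pyruvate dehydrogenase genes 7 of 17 were higher and 0 lower, including Suclg2 (1.23, SE 0.25, adjusted p = 8.33e-05) and Dlat (1.14, SE 0.30, adjusted p = 0.00199). The share called, 41.2%, was below the 52.6% of all genes called in either direction, while 29.2% of all genes were called higher.

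**Figure D4:**
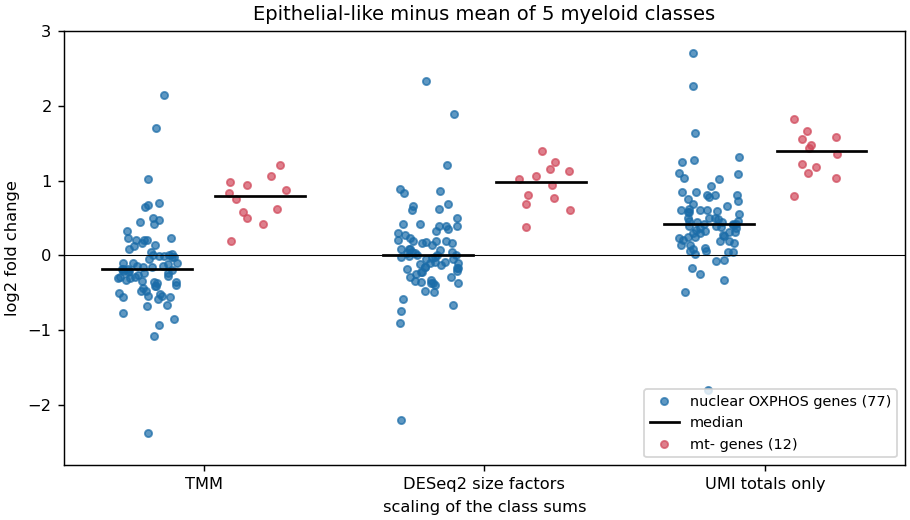
Log2 fold change of the 77 nuclear members (left of each pair) and 12 mt- genes (right of each pair) in epithelial-like cells minus the mean of 5 myeloid classes under 3 scalings of the class sums, with a line at the median. The nuclear median moves from -0.18 with TMM to 0.01 and 0.42, while every mt- gene stays above 0. Cox7a1 and Atp5sl had 0 UMIs in mature DC-like cells, which are in the mean, so the size of their folds is uncertain.

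Tissue isoforms of complex IV had few UMIs. Cox6a2, the heart and skeletal muscle isoform of Cox6a, had 56 of its 115 UMIs in cluster 12, a set of 58 cells with Cd7, Siglech and Spib among its 10 leading genes. In replicate 1 there were 39 UMIs in 6 of 31 cells and in replicate 2 there were 17 UMIs in 3 of 27 cells, which is 198 and 87.9 unscaled CPM. Thinned to 1913 UMIs, 12.9% and 3.70% of cells had a Cox6a2 UMI. The larger epithelial-like cluster had 0 of 98 and 0 of 38 cells with a UMI, which allows shares of cells with a UMI of up to 3.69% and 9.25% by the exact binomial interval and sets no limit on cells that express the gene. The median depth was 6388 UMIs per cell in cluster 12 and 7456 in that epithelial-like cluster. Macrophage-like cluster 3 had 7 UMIs in 7 of 214 cells and 11 UMIs in 10 of 119 cells, and no cell there had more than 2.

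The 9 cells of cluster 12 with a Cox6a2 UMI carried up to 11 UMIs of it each. Of the genes examined that are known from plasmacytoid dendritic cells, Siglech was present in all 9 cells, Ccr9 in 8, Ly6d in 7, Spib in 6 and Klk1 in 4. In the 49 cells of the cluster without Cox6a2 they were present in 9, 3, 2, 8 and 1. Other such genes did not separate the cells by presence. Bst2 was present in 9 of 9 and 45 of 49, though at 1417 unscaled CPM with Cox6a2 and 760 without. Tcf4 was present in 7 of 9 and 37 of 49 (286 and 365 unscaled CPM), and Runx2 in 2 of 9 and 8 of 49 (30.2 and 27.8 unscaled CPM). The common isoform Cox6a1 was present in all 9 cells and in 46 of the 49, at 437 and 525 unscaled CPM. The depth of these cells was similar, with medians of 6024 and 6429 UMIs. These cells were picked by their Cox6a2 counts after the values were seen, so the counts are a description. Of the other rare isoforms, all 7 Cox8b UMIs lay in 5 epithelial-like cells of replicate 1, and the 23 Ndufa4l2 UMIs lay in epithelial-like, fibroblast-like, endothelial-like and cluster 9 cells.

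**Figure D5:**
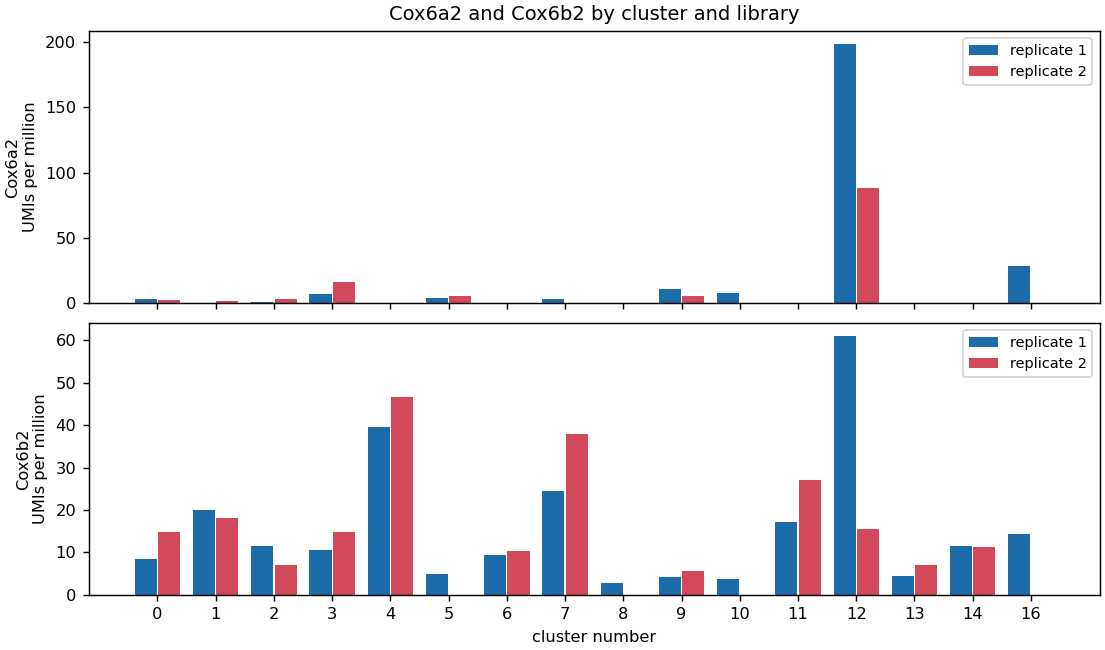
Unscaled CPM of Cox6a2 (top) and Cox6b2 (bottom) in each cluster found in both libraries, with replicate 1 left and replicate 2 right. Cox6a2 stands out in cluster 12 (198 and 87.9), and Cox6b2 is high in cluster 4, the cDC2-like cells, in both libraries.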

How the data were processed

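CD11c-selected cells from mouse tumours were measured as 2 libraries with the 10x Genomics 3′ chemistry, which marks molecules with UMIs. Per the submitters' processing notes the authors used Cell Ranger 2.2.0 with build mm10; the annotation release is not given in these sources. They deposited raw UMI counts per gene for 737280 barcodes of each library. Cells were barcodes past 2112 and 1905 UMIs (the 99th percentile of the top 3000 barcodes divided by 10), with at least 200 genes, at most 10% mt- UMIs and without the 30 and 12 highest Scrublet doublet scores (0.8% per 1000 cells). Genes were split so that clustering stayed apart from testing: 13886 genes built Leiden clusters (scanpy 1.11.5, resolution 1) and 14112, with all members and lists among them, were held out for the tests. Clusters were named where at least 3 markers passed.

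UMIs were summed per class and library. edgeR 4.0.16 (quasi-likelihood, TMM) was fitted to 18 sums with the library as a block, with Benjamini-Hochberg adjustment over 4878 genes past the low-count filter, and called genes had an adjusted p under 0.05. Counts were simulated with known 2-fold and 4-fold changes of 200 genes above a minimum level, in the macrophage-like sums only. In the macrophage-like minus cDC2-like comparison these changes were recovered for 81% and 99% of genes, with 6 false calls. Neither the smaller classes nor changes under 2-fold were simulated. DESeq2 1.42.0, other scalings, filters, thinning, clusterings and gates were alternatives. Classes of a library came from the same capture, which is where the pairing comes from. Genes named were chosen from up to 12 called members of largest fold whose libraries moved the same way, the highest member of each complex, isoform families, Sdh and mt- genes, and up to 2 called genes of every other list; Cox6a2 cells were singled out after their values were seen. The members and gene lists were chosen with earlier results of these data known. Intervals cover counting error only.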

Additional observations from a re-analysis of the deposited data

Results flagged for a closer look

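Barcodes of at most 50 UMIs, which enter no comparison between classes, carried UMIs of both gene sets. In the 308732 such barcodes of replicate 1, nuclear OXPHOS genes took 2.75% of UMIs (95% exact binomial interval 2.73% to 2.78%) and mt- genes 4.81%. In the 250502 such barcodes of replicate 2 they took 2.43% (2.41% to 2.46%) and 6.54%. The nuclear share lay within the range of the cell classes, and the mt- share was above that of every myeloid class given in the report. Of the barcodes past the UMI threshold, 83 and 90 had more than 10% mt- UMIs, and the nuclear members took 1.99% and 2.10% of theirs. These values were listed because they lie in data outside the main measurement and above the limit that a count of 0 allows.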

How the results depend on the processing

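Counts below are members called, of those tested, and medians are log2 fold changes of the members. With UMI totals and no scaling factor, 1 member was higher and 16 lower in macrophage-like cells against cDC2-like cells, 3 higher and 3 lower (median 0.13) in resident macrophage-like against macrophage-like cells, 8 higher in cDC1-like and 16 lower in mature DC-like against cDC2-like cells, 54 higher in cycling cells, and 49 higher and 3 lower (median 0.42) in epithelial-like cells against the myeloid classes. This scaling moved the median of all genes by 0.60 for epithelial-like, 0.21 for macrophage-like, 0.18 for cycling and 0.11 for resident macrophage-like and cDC1-like cells. With DESeq2 size factors, 3 were lower in resident macrophage-like cells (median 0.038), 15 lower in mature DC-like cells, 1 lower in cycling cells, and 17 higher and 13 lower in epithelial-like cells (median 0.0054). DESeq2 itself gave 3 higher in resident macrophage-like cells (median 0.041), 6 higher in cDC1-like cells, 1 lower in cycling cells and 15 higher in epithelial-like cells (median 0.0088). Without ribosomal protein and mt- genes 15 were higher in epithelial-like cells.

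Without the replicate block, which pairs classes of a library, 3 members were lower in resident macrophage-like, 0 higher in cDC1-like and 17 lower in mature DC-like cells. Leaving out a library left no residual degrees of freedom and so gave values with no test; the median in resident macrophage-like cells was then -0.15 to 0.028. With no low-count filter, 1 was higher and 22 lower in macrophage-like cells, 3 lower in resident macrophage-like, 1 higher in cDC1-like and 13 lower in epithelial-like cells. After thinning, 16 were lower in macrophage-like, 3 in resident macrophage-like (median 0.022), 0 in cDC1-like, 11 in mature DC-like and 6 in epithelial-like cells (median 0.021). With 23 cells per class and library, 3 were lower in macrophage-like, 0 in resident macrophage-like (Uqcrc1 0.35), 0 lower and 1 higher in cDC1-like, 1 lower in mature DC-like, 1 higher in cycling, and 13 higher and 2 lower in epithelial-like cells (median 0.14), at a much smaller depth.

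In macrophage-like cells 1 was higher with all genes outside the lists building clusters, an mt- filter at 5%, no mt- filter, no doublet removal and resolution 2; in cDC1-like cells 0 were higher under these 5, under the per-cell marker gate and with barcodes of at least 1000 UMIs, and their medians were -0.029 with all genes building clusters, -0.0031 with no doublet removal, -0.059 with the gate and -0.057 at resolution 2. Clusters built on all genes gave 1 lower in cycling cells. Barcodes of at least 1000 UMIs gave 23 lower in macrophage-like and 2 lower in cDC1-like cells, the gate 13 lower in macrophage-like and 10 in mature DC-like cells, and resolution 2 gave 1 lower in resident macrophage-like cells. The resident macrophage-like class, and with it the cycling and epithelial-like comparisons, was not found with at least 1000 UMIs, the 5% filter, no doublet removal, the gate or resolution 0.5. The cause of these moves was not tested.

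Nuclear shares of UMIs without ribosomal protein and mt- genes in the total were 3.82% in cDC1-like, 3.52% in cDC2-like, 3.57% in monocyte-named clusters, 3.94% in cycling, 3.95% in epithelial-like, 2.64% in fibroblast-like, 2.50% in macrophage-like, 2.65% in mature DC-like and 2.58% in resident macrophage-like cells. Thinned, they were 2.38% in cDC2-like, 2.60% in monocyte-named, 2.92% in cycling, 2.69% in epithelial-like and 2.03% in resident macrophage-like cells, and mt- shares 2.65% in cDC1-like, 2.93% in cycling, 2.83% in fibroblast-like and 2.93% in macrophage-like cells. Without an mt- filter nuclear shares were 2.45% in cDC2-like, 2.96% in monocyte-named, 2.92% in cycling, 2.64% in epithelial-like, 1.97% in mature DC-like and 2.04% in resident macrophage-like cells, and mt- shares 3.16% in monocyte-named, 3.10% in cycling, 8.94% in epithelial-like, 2.70% in fibroblast-like and 3.07% in macrophage-like cells. At 5%, nuclear shares were 2.93% in monocyte-named and 2.96% in cycling cells, and mt- shares 2.24% in cDC1-like, 2.42% in cycling, 3.78% in epithelial-like, 2.19% in fibroblast-like and 2.42% in macrophage-like cells. With no doublet removal nuclear shares were 2.44% in cDC2-like, 2.82% in monocyte-named and 2.90% in cycling cells, and mt- shares 2.58% in fibroblast-like and 2.76% in macrophage-like cells. With the gate nuclear shares were 2.69% in cDC2-like, 3.06% in cycling, 2.29% in macrophage-like and 2.02% in mature DC-like cells, and mt- shares 2.39% in cDC2-like and 2.76% in macrophage-like cells. At resolution 0.5 nuclear shares were 2.48% in cDC2-like, 2.95% in monocyte-named, 2.96% in cycling and 2.03% in macrophage-like cells, and mt- shares 2.94% in cycling and 2.65% in macrophage-like cells. At resolution 2 nuclear shares were 2.47% in cDC2-like, 2.95% in monocyte-named, 2.90% in cycling, 2.08% in macrophage-like and 2.17% in resident macrophage-like cells, and mt- shares 2.43% in cDC1-like, 2.58% in fibroblast-like and 2.85% in macrophage-like cells. With free RNA subtracted the nuclear share was 2.92% in cycling cells and the mt- share 2.77% in macrophage-like cells.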
